A study of Oryza sativa Indica Group with 6 samples.

Results

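The villins of the rice male gametophyte are described here across 3 stages of pollen development. Villins are actin-binding proteins built from repeated gelsolin-like domains and, in most members, a headpiece at the C terminus. They tie actin filaments into bundles, and many of them also cap or sever filaments when calcium rises. In Arabidopsis, VLN5 is the villin best known from pollen, where it keeps the actin of the growing tube in order, and in rice VLN2 is known from mutants with altered organ growth. Villin numbers were given within each species, so the same number in another plant does not by itself mark the closest relative.

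The members are the genes whose symbol or synonym in the RefSeq gene table is VLN1 to VLN5 or Villin-1 to Villin-5, with every probe set that the platform annotation pairs with that gene alone. The rule found 4 genes of the 17905 with a single-gene probe set, and 7 probe sets of 22436. They are VLN4 (gene 4336902, 2 probe sets), Villin-2, also named VLN2 (gene 4332869, 1 probe set), Villin-5, also named VLN5 (gene 4345036, 3 probe sets), and VLN1 (gene 4337837, 1 probe set). No gene named VLN3 or Villin-3 was found. The array's genome build is not named, so no positions are given.

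RNA came from field-grown plants of the rice variety Guichao No.2 (Oryza sativa Indica Group), with no treatment and a single genotype. The groups are uninucleate microspores (UNM), bicellular pollen (BCP), made of a vegetative cell with a generative cell inside it, and tricellular pollen (TCP), where sperm cells have formed by division of the generative cell. There were 2 biological replicates per stage on 1 Affymetrix array each, 6 arrays in all. Values are RMA signals on the log2 scale, and levels are means ± SD with n = 2 arrays per stage. A difference is the later stage minus the earlier one, from limma over all 57194 tested probe sets, with its standard error (SE) or 95% confidence interval. Rose and fell are used for differences of at least 1 whose p, adjusted by Benjamini-Hochberg over all tested probe sets, was under 0.05. A gene's call is that of its probe set with the highest mean over the 6 arrays, and the number of arrays limits the precision. The labels do not say how the gametophytes were separated from the anther or how many plants a sample pooled.

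A probe set was taken as above background where it exceeded the 95th percentile of the 64 reporter probe sets of the same array, which lay between 5.00 and 5.84. The 2 measured pollen markers, the beta-expansin genes EXPB9 and EXPB10, were above background on all 4 BCP and TCP arrays and on neither UNM array. Of 12 markers of the anther wall, the tissue around the microspores, 1 or 2 were above background on each BCP and TCP array, against 10 on each UNM array. Their mean level was 7.64 and 7.65 in UNM, 4.39 and 4.51 in BCP, and 4.53 and 4.50 in TCP. Of the 2 markers of green tissue, 1 was above background on each BCP and TCP array and both on each UNM array. They went in opposite directions. CAB2R averaged 11.35, 4.55 and 3.94 in UNM, BCP and TCP, and RBCS averaged 8.35, 8.67 and 9.36. For a control actin, the 3' probe set minus the middle one, a sign of RNA quality, was 1.81 to 1.93 on the BCP and TCP arrays, against 3.06 and 3.15 on the UNM arrays. For a control GAPDH the same measure was 1.29 and 0.71 in UNM, 1.10 and 0.91 in BCP, and 1.60 and 1.51 in TCP, with overlap of UNM and BCP and the highest values in TCP. The shifts of the pollen markers, most anther wall markers, CAB2R and the control actin coincide with the UNM to BCP step. RBCS and the control GAPDH did not share that shift. The part of these shifts in the villin results below was not tested. In such bulk samples, fewer cells of a type and less RNA per cell cannot be told apart.

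VLN4 was the villin with the largest change. Its probe set Os.53481.2.S1_at read 6.66 and 6.62 in UNM, 12.44 and 12.48 in BCP, and 12.64 and 12.49 in TCP. Both UNM arrays lay far below the 4 pollen arrays, and the TCP arrays stood just above the BCP arrays, without overlap. The second probe set, Os.53481.1.S1_x_at, whose probes may also match related transcripts, read 3.92 and 3.71 in UNM, 10.86 and 10.85 in BCP, and 10.99 and 10.96 in TCP. It showed the same step, from signals that were not above background on either UNM array.

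From UNM to BCP the first VLN4 probe set rose by 5.82 (95% interval 5.53 to 6.12), which is a 56.6-fold higher signal in BCP (interval 46.1 to 69.4). The adjusted p was 2.12e-07 by limma. Only 231 of all tested probe sets had a larger difference in this comparison, and 18 of the 2457 genes that have a real symbol and not just a locus number. The second probe set rose by 7.04 (SE 0.13, adjusted p 1.51e-07), at least 53.4-fold against the background level of UNM. TCP minus BCP was 0.11 (interval -0.19 to 0.40) for the first and 0.12 (interval -0.19 to 0.43) for the second, and neither passed. Thus, in the deposited values, 98.1% and 98.3% of the difference between TCP and UNM was already there in BCP. TCP minus UNM was 5.93 (SE 0.12) and 7.16 (SE 0.13), with adjusted p of 8.32e-08 and 6.29e-08.

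**Figure D1:**
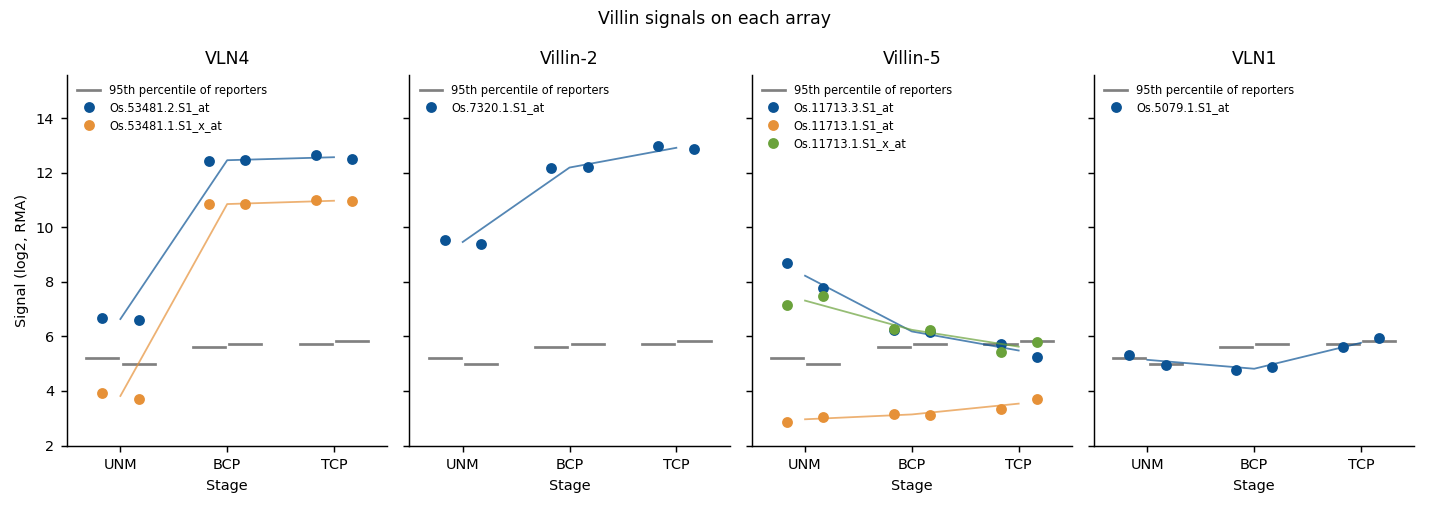
RMA signal on the log2 scale (y axis) of each villin probe set on each of the 6 arrays, by stage (x axis); points are arrays, lines join stage means, and grey bars are the 95th percentile of the reporter probe sets on that array. VLN4 and Villin-2 are higher in BCP and TCP than in UNM, 2 of the 3 Villin-5 probe sets are lower, and VLN1 stays near the grey bars.

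Villin-2, the rice gene with the mutant described above, was well above background on all 6 arrays. Its probe set Os.7320.1.S1_at read 9.53 and 9.39 in UNM, 12.18 and 12.20 in BCP, and 12.97 and 12.86 in TCP. The 3 stages did not overlap, and the order was UNM, BCP, TCP. From UNM to BCP it rose by 2.73 (interval 2.43 to 3.03), a 6.63-fold higher signal in BCP with an adjusted p of 3.99e-06. In that comparison 97.5% of all probe sets had a smaller difference.

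TCP minus BCP was 0.72 for Villin-2 (interval 0.43 to 1.02, adjusted p 0.00362), a 1.65-fold higher signal in TCP. This passed the threshold on p and not the minimum difference of 1. TCP minus UNM was 3.45 (SE 0.13, adjusted p 6.22e-07), a 10.9-fold higher signal in TCP. At 79.0%, the share of this difference reached by BCP was smaller than that of VLN4. The difference between the shares was not tested. Both shares are those of the deposited values and depend on the scaling between arrays. Under the scaling by hybridization controls described below, BCP minus UNM was 2.47 for Villin-2 and 5.56 for the first VLN4 probe set. TCP minus UNM was then 1.96 and 4.44, so BCP stood above TCP for both.

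Villin-5 went the other way. Its probe set with the highest mean, Os.11713.3.S1_at, read 8.68 and 7.76 in UNM, 6.22 and 6.15 in BCP, and 5.71 and 5.25 in TCP. The 3 stages did not overlap, and the UNM arrays stood further apart (SD 0.65) than those of the later stages. The probe set Os.11713.1.S1_x_at read 7.14 and 7.48 in UNM, 6.26 and 6.22 in BCP, and 5.44 and 5.81 in TCP, with the stages in the same order. Both probe sets were above background on every UNM and BCP array and on no TCP array. Another probe set, Os.11713.1.S1_at, read 2.87 to 3.72 and was not above background on any array, so it gives no level for the gene. Its stages did not overlap either, so with 2 arrays per stage a lack of overlap alone says little. Os.11713.1.S1_at carries the same number, 11713.1, as the x_at probe set, whose probes may also match related transcripts. The signal of the x_at probe set in UNM and BCP was thus not shared by the other probe set of that number.

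BCP minus UNM was -2.04 (interval -2.76 to -1.33) for the leading Villin-5 probe set, a 4.12-fold lower signal in BCP with an adjusted p of 0.00144. For the x_at probe set it was -1.07 (interval -1.49 to -0.65, adjusted p 0.00266). The smaller value missed the minimum difference after a repeated quantile normalization, after centring on the 75th percentile and without the second UNM array. TCP minus BCP was -0.70 (interval -1.41 to 0.02, adjusted p 0.115) and -0.62 (interval -1.04 to -0.19, adjusted p 0.0317), and neither passed both criteria. TCP minus UNM was -2.74 (SE 0.30, adjusted p 0.000219) and -1.69 (SE 0.18, adjusted p 0.000174). Because TCP was at background, these are lower by at least 5.44-fold and at least 2.89-fold. The mean of the anther wall markers was also lower in BCP and TCP than in UNM. Of the 12, 8 fell from UNM to BCP (66.7%, against 25.1% of all genes). MSP1 rose from BCP to TCP and averaged 7.15 in TCP against 6.59 in UNM, a difference that did not pass. PTC1, not above background in any stage, was also higher in TCP than in UNM. The part of these markers in the fall of Villin-5 was not tested.

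VLN1 lay near background throughout. Its probe set Os.5079.1.S1_at read 5.31 and 4.97 in UNM, 4.75 and 4.88 in BCP, and 5.60 and 5.93 in TCP. It was above background on 1 UNM array, on neither BCP array and on 1 TCP array. The stages did not overlap, with TCP highest and BCP lowest, but the differences were small. TCP minus BCP was 0.95 (interval 0.53 to 1.37, adjusted p 0.00483), just short of the minimum difference, and at least 1.08-fold where BCP is held at background. This call depended on single arrays: the difference was 1.01 without the second BCP array and 1.11 without the first TCP array, and both then passed. It also passed after centring on the 75th percentile. BCP minus UNM was -0.33 (interval -0.74 to 0.09, adjusted p 0.221), and TCP minus UNM was 0.62 (interval 0.21 to 1.04, adjusted p 0.0210).

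By gene, 2 of the 4 villins rose from UNM to BCP and 1 fell. Over all 17905 genes 17.1% rose and 25.1% fell in that comparison, and by probe set 9.27% rose and 12.3% fell, against 3 rises and 2 falls of the 7 villin probe sets. The counts from UNM to TCP were the same for the villins, with 2 genes up and 1 down, where 14.4% of all genes rose and 37.7% fell (12.1% and 17.9% of probe sets). From BCP to TCP limma called 0 of 4 villin genes, where 8.52% of all genes rose and 28.6% fell (5.94% and 13.3% of probe sets). Of the 4, 2 (Villin-2 and VLN1) had an adjusted p under 0.05 by limma and missed only the minimum difference. The median villin difference was 1.20 from UNM to BCP, 0.42 from BCP to TCP and 2.04 from UNM to TCP, against medians over all genes of -0.12, -0.06 and -0.34. With 4 genes these counts describe the members and no more. The 3 comparisons share their arrays and are not independent of each other.

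**Figure D2:**
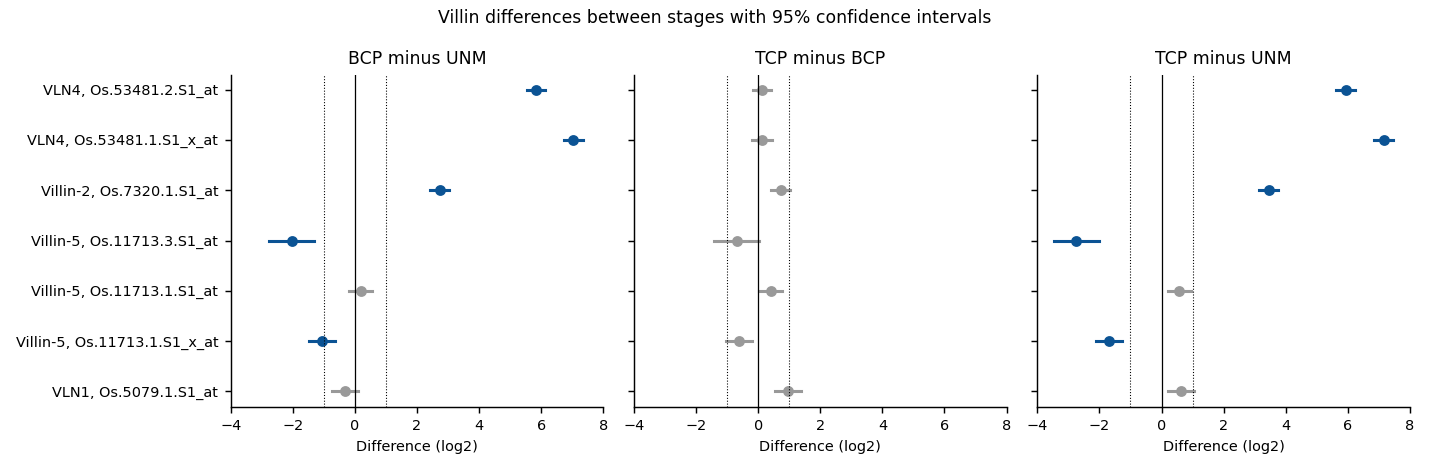
Difference between stages on the log2 scale (x axis) for each villin probe set (y axis), with 95% confidence intervals, in the 3 comparisons; blue marks probe sets that passed both criteria, grey those that did not, and dotted lines stand at -1 and 1. The UNM to BCP panel and the UNM to TCP panel have the same 5 blue probe sets, and the BCP to TCP panel has none.

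The villins were also set against each other on the same array, since a change in one relative to another is not moved by adding a constant to all values of an array. A repeated quantile normalization is no such constant and can move it. VLN4 minus Villin-5, by their leading probe sets, was -2.03 and -1.15 in UNM, 6.22 and 6.34 in BCP, and 6.93 and 7.24 in TCP. These values are changes in balance and not levels of one gene against the other, because probe sets differ in response. The balance moved by 7.86 from UNM to BCP and by a further 0.81 from BCP to TCP, with no overlap between stages. Villin-2 minus Villin-5 moved by 4.77 and then by 1.42 in the same direction. The second step rests on Villin-5 values that were not above background on either TCP array. With Villin-5 held at the background level of those arrays, that step was 0.51 for VLN4 and 1.13 for Villin-2, and after a repeated quantile normalization it was 0.63 and 1.28.

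Between the villins that rose, VLN4 minus Villin-2 was -2.87 and -2.78 in UNM, 0.26 and 0.28 in BCP, and -0.32 and -0.37 in TCP. VLN4 thus gained on Villin-2 by 3.09 from UNM to BCP, and Villin-2 gained on VLN4 by 0.61 from BCP to TCP, where the change was -0.61 (VLN4 minus Villin-2). The stages did not overlap in either step. An exact two-sided permutation test of 2 arrays against 2 cannot give a p below 0.333, and gave that value for each of these changes. VLN1 minus Villin-2 overlapped between TCP (-7.36 and -6.93) and BCP (-7.42 and -7.33), where VLN1 was not above background.

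**Figure D3:**
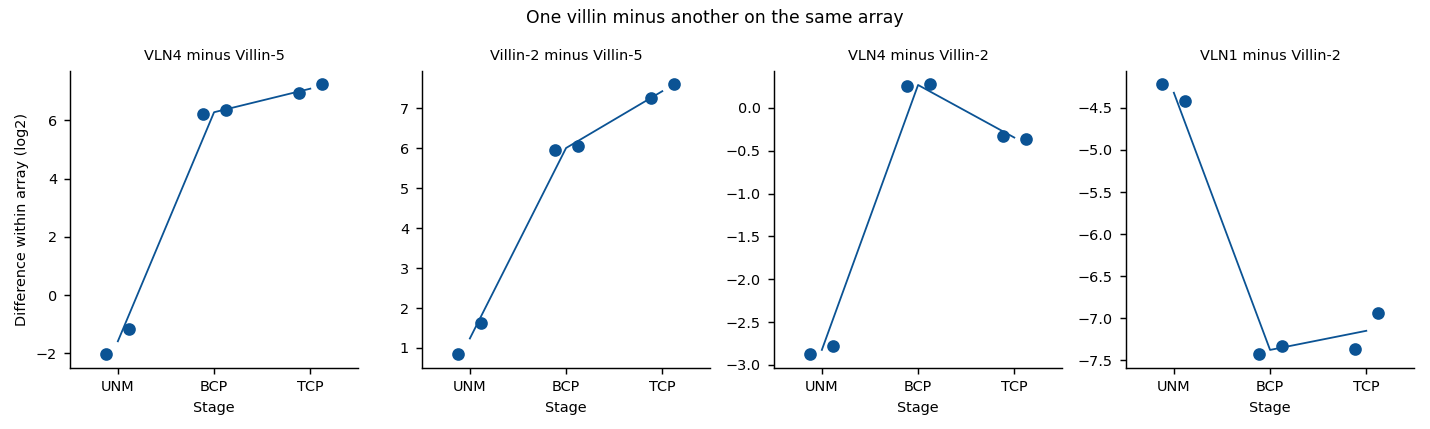
Signal of one villin minus that of another on the same array, on the log2 scale (y axis, a scale of its own in each panel), by stage (x axis); points are the 2 arrays of each stage and lines join stage means. The balance of VLN4 and Villin-2 reverses direction after BCP, with values near -0.35 in TCP, against 0.27 in BCP. The steps of VLN4 and Villin-2 against Villin-5 after BCP rest on Villin-5 values that were not above background in TCP.

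The small BCP to TCP differences turned on how arrays were scaled to each other. The 21 hybridization controls taken here were the probe sets for bioB, bioC and bioD, labelled bacterial transcripts added to the sample. They averaged 9.00 and 8.91 on the TCP arrays, against 7.81 and 7.64 on the BCP arrays. After scaling by them TCP minus BCP was -1.12 for VLN4, -0.51 for Villin-2, -1.93 for Villin-5 and -0.28 for VLN1, and VLN4 and Villin-5 then passed as falls. The test changed along with the scale: under either control scaling limma gave every probe set the same SE, 0.32 with the hybridization controls and 0.26 with the cre controls described next, where the deposited values gave SEs of 0.12 to 0.72. The 6 control probe sets for cre, set apart from those 21 by name only, moved less. They averaged 12.84 and 12.77 on the TCP arrays, against 12.60 and 12.47 on the BCP arrays. Scaling by these gave -0.16, 0.45, -0.97 and 0.68 in the same order of genes. A repeated quantile normalization gave -0.036, 0.61, -0.67 and 0.99. The direction of VLN4 from BCP to TCP is therefore not settled. Nor are those of Villin-2 and VLN1, which were higher in TCP under the other scalings and lower with the hybridization controls. The rises of VLN4 and Villin-2 and the fall of Villin-5 from UNM to BCP and from UNM to TCP kept their calls under all of these scalings, by the leading probe set of each gene.

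**Figure D4:**
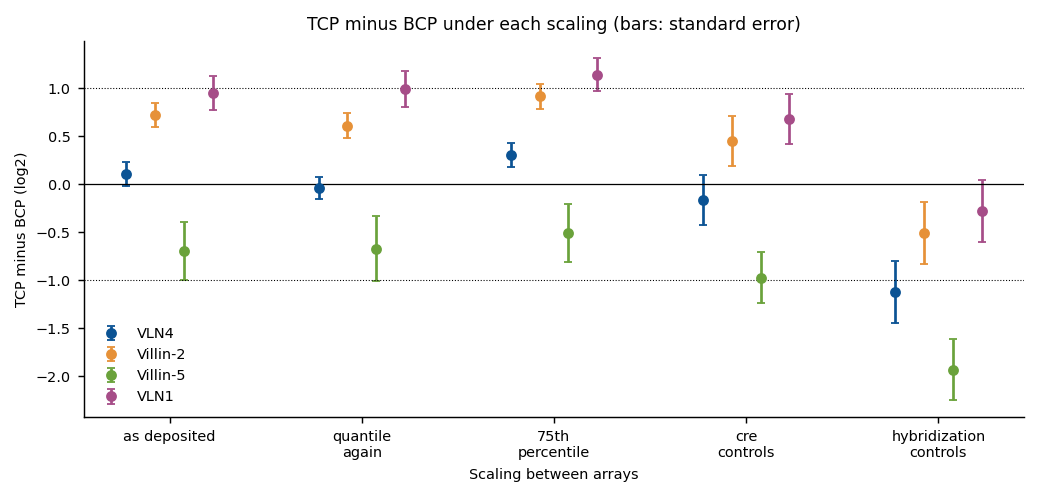
TCP minus BCP on the log2 scale (y axis) for the leading probe set of each villin under 5 scalings between arrays (x axis), with bars of 1 standard error and dotted lines at -1 and 1. Scaling by the hybridization controls puts all 4 genes below 0. Except for the repeated quantile normalization, each scaling moves the 4 genes by 1 common amount.

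The other genes of the actin cytoskeleton were read from a list by symbol, of which 30 were measured. From UNM to BCP 7 rose and 9 fell (23.3% and 30.0%, against 17.1% and 25.1% of all genes). From BCP to TCP 2 rose and 9 fell (6.67% and 30.0%, against 8.52% and 28.6%), and from UNM to TCP 7 rose and 16 fell (23.3% and 53.3%, against 14.4% and 37.7%). The counts of the smaller groups below stand against the same shares of all genes. The median differences of the 30 genes were -0.14, -0.38 and -1.22. With the hybridization controls as scale the counts became 7 and 10, 1 and 21, and 5 and 21, and the medians -0.40, -1.61 and -2.72. Over all 57194 tested probe sets, rises and falls were then 4298 and 8710, 921 and 33406, and 1976 and 39685. These last are counts of probe sets and not of genes. Of the called genes, 1 in each comparison was not above background in either stage, and 5, 2 and 8 were not above background in one stage, so that only a bound is given for those named here. No profilin, fimbrin, LIM protein or myosin had a matching symbol.

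Of the 4 actin genes, which encode the filament itself, 1 rose and 2 fell from UNM to BCP. ACT1 averaged 11.61 ± 0.10 in UNM, 13.71 ± 0.03 in BCP and 13.25 ± 0.06 in TCP (SD, n = 2). Its step from UNM to BCP was 2.10 (SE 0.12), the same direction as VLN4 and Villin-2. ACT2 and ACT3 fell in that step, by 3.76 (SE 0.21) and by 2.65 (SE 0.14), the direction of Villin-5. ACT7 had a difference of -0.96 (SE 0.14) from UNM to BCP, short of the minimum, and fell by 1.06 from BCP to TCP, a call lost after a repeated quantile normalization and after centring on the 75th percentile. Actins are closely related genes, and the probe sets of ACT1 and ACT7 may also match other transcripts.

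Among the 9 measured actin-depolymerizing factors, which sever filaments and speed their turnover, 3 rose and 3 fell from UNM to BCP. ADF9 was not above background on either UNM array (4.18 and 3.71) and was at least 129.7-fold higher in BCP. ADF1 rose by 6.28 (SE 0.20) and ADF6 by 5.57 (SE 0.13), both with signals above background in UNM. From BCP to TCP 0 rose and 2 fell, ADF10 at -1.79 (SE 0.12) and ADF2 at -1.07 (SE 0.13). ADF2 was short of the minimum after a repeated quantile normalization and when arrays were centred on the 75th percentile. From UNM to TCP 3 rose and 4 fell, with ADF9 at least 167-fold higher in TCP, ADF1 at 6.47 (SE 0.20) and ADF6 at 6.01 (SE 0.13).

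Formins start and lengthen unbranched filaments. Of 10 measured, 2 rose and 2 fell from UNM to BCP, with FH6 at 2.94 (SE 0.22) and FH3 at 1.58 (SE 0.14). FH3 and FH13 were read by x_at probe sets, whose probes may also match related transcripts. FH5, the rice formin gene also named BUI1, averaged 7.46 in UNM, was not above background in BCP or TCP, and was at least 3.49-fold lower in BCP than in UNM. From BCP to TCP FH11 rose, with 8.37 ± 0.07 in TCP against 3.70 ± 0.06 in BCP, a step at which no villin was called. Its BCP values were not above background, so the signal was at least 6.59-fold higher in TCP. FH3 fell by 2.64 (SE 0.14) in the same comparison. FH13 passed as a rise but was not above background on any BCP or TCP array, so no size is given. From UNM to TCP FH11 was at least 9.58-fold higher and FH5 at least 3.20-fold lower in TCP. FH6 had a difference of 2.12 (SE 0.22) there, and of 0.63, without a call, when the hybridization controls set the scale.

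The genes of branched-filament nucleation were represented by ARP3, of the ARP2/3 complex, and NAP1, of the complex that activates it. ARP3 was not above background on any array, with means of 4.63, 3.24 and 3.25 in UNM, BCP and TCP, so its called fall from UNM to BCP has no size. NAP1 differed by 0.50 (SE 0.17) in the first step, which did not pass, and fell by 2.42 (SE 0.17) in the second. Of the 5 actin-related proteins ARP4 and ARP6 to ARP9, a group that includes subunits of chromatin remodelling complexes, 1 rose and 1 fell from UNM to BCP, and 4 fell from BCP to TCP. ARP8 rose by 3.82 (SE 0.14) and ARP6 fell by 1.97 (SE 0.15) in the first step, and ARP7, ARP4 and ARP9 fell in the second, with differences of -3.31, -2.56 and -2.42.

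**Figure D5:**
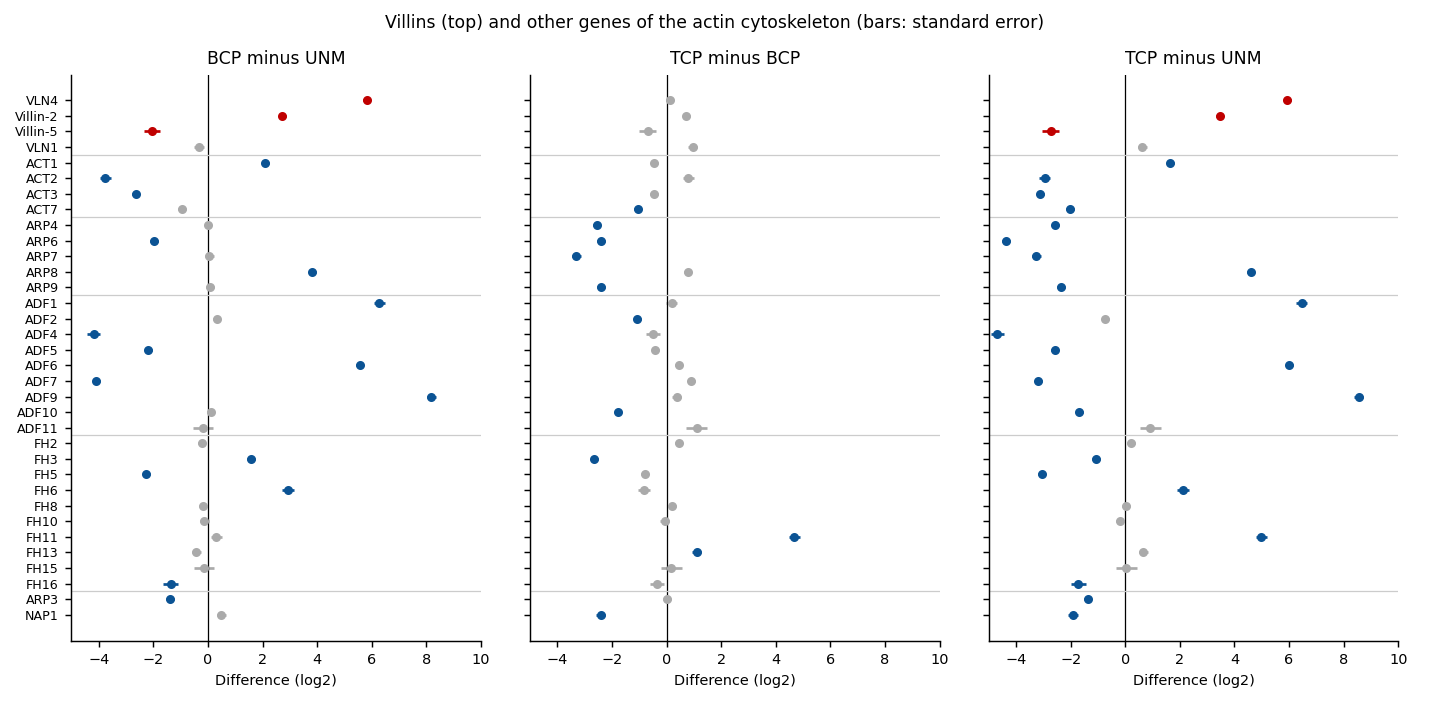
Difference between stages on the log2 scale (x axis, bars of 1 standard error) for the villins (top block) and, below them, actins, actin-related proteins, depolymerizing factors, formins and branching nucleators (y axis), in the 3 comparisons; coloured points passed both criteria and grey ones did not, and differences are drawn as fitted also where a stage was not above background. Each of the larger groups holds both rises and falls from UNM to BCP, and VLN4 lies beside ADF1, ADF6 and ADF9 at the right.

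To find the genes most like each villin, the 6 log2 values of every named gene were centred on their mean and compared by root mean square distance, over 2456 other genes. VLN4 lay closest to ADF6, at a distance of 0.16, and next to ADF1, at 0.27. ADF6 averaged 6.79, 12.36 and 12.79 in UNM, BCP and TCP, beside 6.64, 12.46 and 12.57 for VLN4. Next came mfs1 (0.41), MST5, a monosaccharide transporter gene (0.44), and SAM2 (0.44). MST5 was not above background on either UNM array. Villin-2, by contrast, was at 1.34 from VLN4, because its step from UNM was smaller.

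Villin-2 lay closest to OsCASPL5A2 (0.14), OsSAP15 (0.15), ILI6 (0.20), DCW11, of the protein phosphatase family 2C (0.21), and SAT5 (0.21). OsSAP15 was not above background on either UNM array. Villin-5 lay closest to OsMCM6, a subunit of the replicative helicase (0.23), APG8C, of the autophagy proteins (0.26), OsC3H37 (0.26), NLP2 (0.27) and MDAR2, a monodehydroascorbate reductase gene (0.27). Of these genes, all but APG8C were not above background on any BCP or TCP array. Villin-5 itself was not above background in TCP, so these distances rest in part on values at background. VLN1 lay closest to CYP76M6, OsPP2C47 and HSP23.2, at 0.13 each, but its own range is small, so that a small distance there says little. HSP23.2 was not above background on any array. All these distances are descriptions over the same 6 arrays, which hold only 3 stages.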

How the data were processed

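RMA summarised the probes of each set, per the submitters' processing notes, and the deposited values are log2 signals. Neither its version nor the arrays it was run on together is stated in the labels. The labels call the replicates biological, and the p-values rest on the spread within these pairs.

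Of the probe sets, 123 Affymetrix controls and 64 reporters were left out of the tests, and 57194 were tested with limma 3.58.1 in R 4.3.3. A single linear fit of the 6 arrays had stage as its factor, with 3 residual and 3.87 prior degrees of freedom. The script was tested on simulated data. All tests were two-sided. Genes were named through gene IDs of the platform annotation and RefSeq. In the actin list, symbols that other families carry (RAC, AIP1, CPA) were not used. Of 5 named genes per villin in the comparison of profiles, all carry a real symbol, not just a locus or clone number. The named genes of the actin list are up to 3 per group and comparison, by size of called differences, and all genes of groups of 4 or fewer. The members and lists were chosen with earlier results of these data known. A planned search of promoters was not made, because no sequence table was used. Alternatives were other scalings, dim or shared probe sets left out, an intensity trend, no minimum difference, a replicate block, the 2 stages alone and each array left out.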

Additional observations from a re-analysis of the deposited data

How the results depend on the processing

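From UNM to BCP the count of called villin genes was 3 under all alternatives, also with the replicate block and without each array in turn. From UNM to TCP it was 3 under all but no minimum difference, when it was 4. From BCP to TCP it was 0, but 1 after centring on the 75th percentile, 2 with the hybridization controls as scale, 2 with no minimum difference, and 0 to 1 without each array in turn. That count was also 0 with the replicate block. Deviations from the stage means correlated at -0.05, -0.07 and 0.01 between stages, so they showed no common pattern over probe sets by replicate number. A constant shift between arrays does not enter these correlations. The hybridization controls were higher in replicate 1 of each stage, at 7.74 against 7.18 (UNM), 7.81 against 7.64 (BCP) and 9.00 against 8.91 (TCP). The cre controls and the control GAPDH measure were also higher in replicate 1 of each stage, and the control actin measure only in BCP. These correlations cannot tell whether the samples were collected or processed in pairs. Scaling by the cre controls was chosen after seeing the data.

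Signs turned in 11 of 327 villin values under alternatives. From BCP to TCP, VLN4 turned to -0.036 after a repeated quantile normalization, to -0.15 and -0.16 with the cre controls and to -1.11 and -1.12 with the hybridization controls. That last setting turned VLN1 to -0.28 and Villin-2 to -0.51 from BCP to TCP, and VLN1 to -0.87 from UNM to TCP. The dim Villin-5 probe set then read -0.085, -0.83 and -0.92 from UNM to BCP, BCP to TCP and UNM to TCP. The control scalings move every probe set of a comparison by 1 common amount, by construction. The repeated quantile normalization does not, and moved the second VLN4 probe set to 0.20; the cause was not tested. With the hybridization controls 34327 probe sets were called from BCP to TCP, against 10992, and 41661 from UNM to TCP, against 17129. In that fit all probe sets also shared an SE of 0.32, and the parts of the shift and of the changed test in these counts were not separated. With no minimum difference 19620, 21767 and 30981 probe sets were called in the 3 comparisons, against 12330, 10992 and 17129. The leading Villin-5 probe set ranged from -2.50 to -1.58 without single UNM arrays from UNM to BCP and kept its call. Background limits the size of the falls of Villin-5 and of the rise of the second VLN4 probe set.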
